A study of Mus musculus with 10 samples.

Results

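The unfolded protein response and the quality control machinery of the endoplasmic reticulum (ER) were examined as a set of 33 genes, chosen by name from the 34745 genes of the deposited table. All 33 had a row there, and all 33 were among the 12264 genes with enough counts to be tested. RNA with poly(A) tails came from peritoneal lavage cells, the mixed cell population rinsed from the abdomen, of mice made septic by cecal ligation and puncture (CLP). The labels name 5 libraries NC (NC 1 to NC 5) and 5 libraries AX (AX 6 to AX 10). From the series' design, AX was read as CLP mice given amlexanox, an inhibitor of the kinases TBK1 and IKKε, and NC as CLP mice given vehicle; the labels spell out neither abbreviation. All 10 libraries thus came from CLP mice, without an unoperated group. Strain, sex, age, dose and time of lavage were not given in the sources used here. Nothing says whether each library came from 1 animal, so p-values measure the spread between these libraries, which may be technical.

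The ER folds and ships secreted and membrane proteins. When unfolded proteins build up there, 3 sensors in its membrane respond: IRE1 (gene Ern1) splices Xbp1 mRNA into its active form, ATF6 is cut to release a transcription factor, and PERK (Eif2ak3) slows translation while favouring that of ATF4. XBP1 and ATF6 raise chaperones and ER-associated degradation (ERAD), which pulls misfolded proteins out of the ER for destruction, and ATF4 raises amino acid metabolism genes and the stress factor CHOP (Ddit3). Macrophages and neutrophils use the same machinery when they secrete cytokines and granule proteins. Counts per gene do not separate spliced from unspliced Xbp1 and do not measure sensor activity.

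Promoters of the members were searched for the motifs of the response. The ER stress response element (ERSE), read by ATF6 and XBP1 together with NF-Y, was searched on both strands as CCAAT and CCACG with any 9 bases between them, from 250 bases before to 50 bases after each RefSeq gene start (build GRCm38.p6). A promoter was listed there for 29 of the 33 members; Ero1l was matched under its newer symbol Ero1a. ERSE occurred in 9 of these 29 members and in 0.119% of all 32851 promoters of the same length. The related ERSE-II, ATTGG and CCACG with any 1 base between them, occurred in 2 members and in 0.0365% of all promoters. A core of the element read by ATF4 with C/EBP proteins, TTNCATCA, occurred in 4 members (Trib3, Chac1, Asns and Herpud1) and in 3.97% of all promoters. The XBP1 core TGACGTGG occurred in 0 of the 29 and in 0.676% of all. The members are known targets of these factors and the motifs were defined on some of them, so the shares are a description. Stretches from 5 members are shown, with ERSE in Hspa5, Creld2 and Syvn1, ERSE-II in Herpud1 and TTNCATCA in Chac1. They belong to genes described library by library or by range below. The matched motif is in capitals and the gene's own strand is read 5′ to 3′.
Hspa5: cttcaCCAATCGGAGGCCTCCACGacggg
Creld2: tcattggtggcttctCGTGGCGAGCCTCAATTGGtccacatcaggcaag
Syvn1: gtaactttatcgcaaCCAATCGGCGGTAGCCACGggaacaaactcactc
Herpud1: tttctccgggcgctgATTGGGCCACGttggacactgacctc
Chac1: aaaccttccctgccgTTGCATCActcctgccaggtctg
They lie at chr2:34772020-34772048, chr15:88819505-88819553, chr19:6046517-6046565, chr8:94386362-94386402 and chr2:119351034-119351071, each on the plus strand. Their motifs begin 65, 126, 44, 52 and 193 bases before the RefSeq gene start, in that order. For Hspa5 the gene begins earlier, at position 34771970, in the deposited table, so this stretch lies inside the gene there and in an exon of GENCODE M21. In Creld2 the ERSE stands in the reverse orientation. Sdf2l1, Dnajb9, Os9, Sel1l, Edem1 and Xbp1 had none of the 4 motifs in this window, which says only that these letters are not there.

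Levels are counts scaled to a common library size with edgeR's TMM factors (CPM), errors are SDs over 5 libraries unless marked SE, and folds compare AX with NC. Total counts ran from 10221170 to 13806885 per library. Leukocyte markers (8 genes) summed to 3087 to 6956 CPM and neutrophil markers (15 genes) to 6877 to 13339.6 CPM over the libraries. Of the leukocyte markers, Ptprc (CD45) stood at 22.4 CPM in AX 8 and at 355 to 1179.9 CPM in the other 9. AX 6 and NC 1 stood apart: 14 mesothelial markers, of the cells lining the cavity, summed to 2853 CPM in AX 6 and 1210.0 CPM in NC 1, against 142 to 436 CPM in the other 8. In NC 1 the keratin genes Krt8 (409 CPM) and Krt18 (142 CPM) made up much of that sum. Msln was also raised in NC 1, at 206 CPM against 116 CPM in NC 3. Upk3b hardly was, at 35.5 CPM against 30.3 CPM in NC 3, while AX 6 held 131 CPM. The 14 stromal markers summed to 3316 and 1541 CPM in AX 6 and NC 1, against 297 to 886 CPM elsewhere. Of these, Col1a1 was highest in AX 6 (48.5 CPM) and NC 1 (37.7 CPM). Col3a1 was highest in NC 1 (67.4 CPM), but AX 6 (35.5 CPM) lay below AX 8, AX 9 and AX 10. The 14 gut and pancreas markers summed to 789 CPM in NC 1, 437 CPM in AX 6, 332 CPM in NC 4 and at most 86.8 CPM elsewhere. The gut marker Epcam was highest in the same libraries, at 44.1, 32.2 and 16.5 CPM. The pancreas markers Cela1 (1.21 to 3.73 CPM) and Prss2 (0 to 1.65 CPM) were low in every library. In such bulk RNA, fewer cells of a type and less RNA per cell cannot be told apart. Values of the ATF4 and CHOP genes, of which Chac1, Asns and Ddit3 were highest in AX 6 and NC 1, are also given without AX 6 or NC 1.

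No member differed between AX and NC past the adjusted threshold of 0.05. The quasi-likelihood test of edgeR called 0 of 33 members, against 0 of all 12264 genes tested (0%), and DESeq2, limma-voom and limma-voom with library quality weights also called 0 members. At an unadjusted p under 0.05 there was 1 member, Os9, beside 113 genes (0.921%) of all tested. Over the alternatives there were 1 to 3, Os9 each time. Creld2 and Dnajc3 joined it without NC 1, Ern1 without AX 6, and Creld2 and Derl2 without AX 8. Creld2 and Syvn1 did so with quality weights or on the FPKM scale. Syvn1 alone joined with limma-voom, with the neutrophil or macrophage marker list as covariate, and without NC 3. Creld2 alone joined without both AX 6 and NC 1. Such p-values were also more frequent among all genes in several of these settings. They numbered 433 of 12414 without NC 1, 381 of 12395 without AX 6 and 319 of 12156 without both. With quality weights they numbered 380 of 12264. In the other settings just named they ran from 92 of 9089 (FPKM scale) to 160 of 12264 (macrophage list as covariate). Os9 was also the 1 member whose groups did not overlap, which held for 17 genes (0.139%) of all. With AX below NC, as for Os9, this held for 8 genes (0.0652%). The fitted value was lower in AX for 20 members and higher for 13, with a median log2 fold change of -0.09, where 46.4% of all genes tested were lower, 53.6% were higher and their median was 0.02. With library totals alone as scaling, 21 members were lower, while 56.8% of all genes were, and on the deposited FPKM scale 22 members were, beside 63.6% of all. The members' median standard error was 0.26 on the log2 scale. With that SE, the 95% interval of Hsp90b1 ran from -0.49 to 0.66, so even differences larger than the SE could go unresolved for most members.

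**Figure D1:**
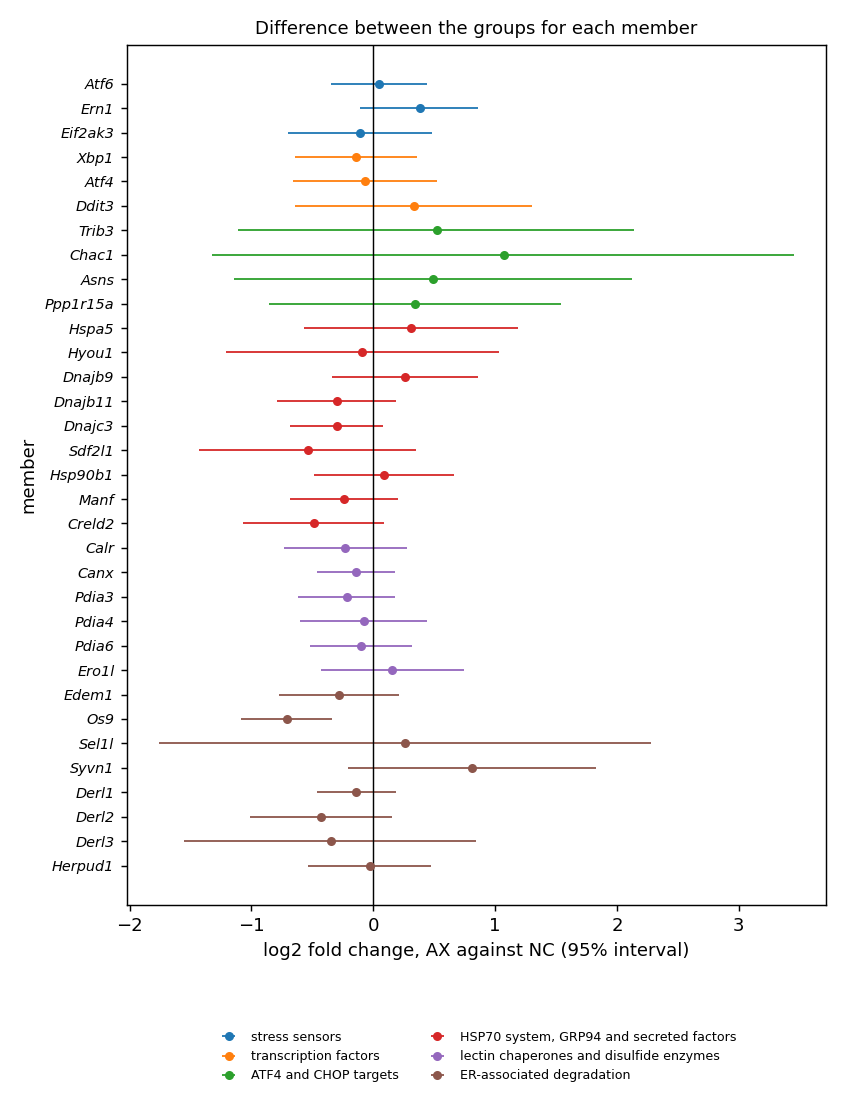
Log2 fold change of AX against NC for each of the 33 members, from edgeR (points) with 95% intervals (bars), coloured by role; the vertical line marks 0. Of the 33 intervals only that of Os9, from -1.09 to -0.34, lies wholly on one side of 0, and the intervals of the ATF4 and CHOP targets Trib3, Chac1 and Asns are among the widest.

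Per gene length, the members covered a wide range. On the deposited FPKM scale, which allows levels of different genes to be compared, the transcription factor gene Atf4 was the most abundant, with a mean over the 10 libraries of 549.6 FPKM. It was followed by the ER chaperone and oxidoreductase genes Hsp90b1 (151 FPKM), Pdia3 (128 FPKM) and Calr (123 FPKM). Hspa5, often the most prominent ER chaperone, was 16th of 33 at 30.6 FPKM. Sensors were scarce, with Atf6 at 11.8 FPKM, Ern1 at 4.52 FPKM and Eif2ak3 at 2.75 FPKM. Derl3, an ERAD gene typical of secretory cells such as plasma cells, was lowest at 1.19 FPKM. Markers of plasma cells (16 genes) summed to 139.9 to 347 CPM in AX and 176 to 385 CPM in NC. Those of B cells (10 genes) summed to 29.03 to 92.6 CPM over the libraries. Of the plasma cell markers, Tnfrsf17 was at 0 in every library and Jchain at 0.646 to 2.25 CPM, while Ighm stood at 50.98 to 165 CPM.

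Among the 3 sensors, AX was above NC for 2 and below it for 1 by the fit, and none passed. Ern1, which encodes IRE1, stood at 37.9, 37.7, 34.4, 48.4 and 51.4 CPM in NC 1 to NC 5 and at 37.8, 56.3, 58.8, 42.1 and 77.7 CPM in AX 6 to AX 10. AX 7, AX 8 and AX 10 lay above every NC library, and the other 2 lay within the NC range. The log2 fold change was 0.38 ± 0.22 (SE; edgeR adjusted p = 1.0). Eif2ak3, which encodes PERK, stood at 21.6, 26.3, 23.7, 18.1 and 22.2 CPM in NC and at 12.1, 20.5, 14.4, 23.6 and 32.9 CPM in AX. The AX libraries thus reached both below and above the whole NC range. Its log2 fold change was -0.11 ± 0.27 (SE), and it turned to 0.03 without AX 6. Atf6 stood at 94.8, 100.5, 141, 92.1 and 117 CPM in NC and at 145, 110.1, 109, 107 and 91.3 CPM in AX. Both groups covered nearly the same range, and the fitted difference of 0.05 ± 0.18 (SE, log2) was -0.06 once AX 6 was set aside.

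None of the 3 transcription factor genes passed the threshold (edgeR adjusted p = 1.0 for each). Xbp1 stood at 261, 421, 297, 339 and 235 CPM in NC 1 to NC 5 and at 325, 336, 211, 338 and 197 CPM in AX 6 to AX 10. NC 2 was highest and AX 10 lowest, and the log2 fold change was -0.14 ± 0.23 (SE). Atf4 stood at 1214, 612, 1266, 788 and 1015 CPM in NC and at 1302, 872, 1145, 689 and 664 CPM in AX. High and low libraries occurred in both groups, and its log2 fold change of -0.07 ± 0.27 (SE) changed sign on leaving out NC 1, NC 3, AX 9 or AX 10. Ddit3 encodes CHOP, a factor linked to cell death under lasting ER stress. It stood at 55.2, 27.9, 45.2, 24.7 and 18.4 CPM in NC and at 91.8, 28.2, 48.4, 27.2 and 19.7 CPM in AX. Apart from AX 6 and NC 1, both groups spanned nearly the same values, and the fitted difference of 0.33 ± 0.44 (SE, log2) turned to -0.15 when AX 6 was left out.

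Targets of ATF4 and CHOP varied most of all role groups: over the 10 libraries the highest held 17.1 times the lowest in the median, against 3.02 times over all genes tested. Within groups, the SD was 48.6% to 111% of the mean in NC and 84.02% to 173% in AX. Chac1, which degrades glutathione, stood at 14.1, 1.09, 6.61, 1.64 and 1.53 CPM in NC 1 to NC 5 and at 42.7, 4.04, 2.71, 1.71 and 0.973 CPM in AX 6 to AX 10. AX 6 held 25.0 times the median of the other 9 libraries, and NC 1 was the next highest. Asns, the asparagine synthetase gene, stood at 43.3, 11.02, 24.7, 7.53 and 13.8 CPM in NC and at 88.3, 20.9, 16.7, 11.03 and 4.14 CPM in AX, again with AX 6 and NC 1 on top. Trib3, a pseudokinase that restrains the ATF4 response, stood at 25.6, 3.71, 12.5, 4.09 and 6.11 CPM in NC and at 28.004, 7.997, 30.4, 5.84 and 2.35 CPM in AX; here AX 8 exceeded AX 6. Ppp1r15a encodes GADD34, which restores translation by reversing the PERK signal. Its levels were 153, 40.2, 185, 125 and 83.5 CPM in NC and 356, 84.2, 169, 83.0 and 48.2 CPM in AX. The highest value was 4.23 times the median of the other 9 libraries, in AX 6, while NC 3 and AX 8 exceeded NC 1.

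All 4 targets had a positive fitted log2 fold change, with a median of 0.50, and none passed the threshold. Chac1 gave 1.07 ± 1.08 (SE), Trib3 0.52 ± 0.74, Asns 0.49 ± 0.74 and Ppp1r15a 0.34 ± 0.55, with edgeR adjusted p = 1.0 for each. Without AX 6 the sign turned for 3 of the 4, to -1.08 for Chac1, -0.61 for Asns and -0.29 for Ppp1r15a. Without both AX 6 and NC 1 the same 3 stood at -0.19, -0.11 and -0.17, and the group median was -0.14. Trib3 kept its positive value throughout, at 0.16 without AX 6, 0.82 without both, 1.18 without NC 1 and 0.07 without AX 8. The 2 libraries with the most mesothelial and stromal marker RNA were thus also the 2 with the most Chac1, Asns and Ddit3 mRNA. The part of those cells in these levels was not tested.

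**Figure D2:**
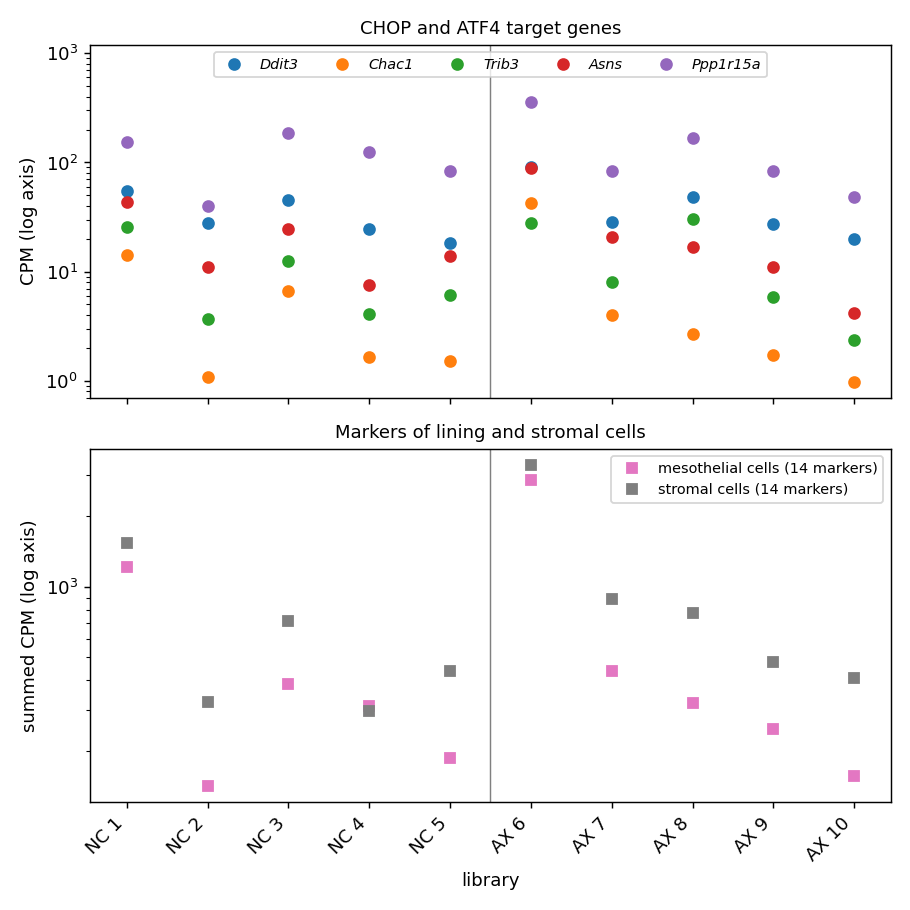
CPM on a log axis for Ddit3 and the 4 ATF4 and CHOP targets (upper panel) and summed CPM on a log axis of 14 mesothelial and 14 stromal markers (lower panel) in each of the 10 libraries; the vertical line parts NC from AX. AX 6, and next NC 1, are highest for both marker sums, Chac1, Asns and Ddit3, while AX 10 is lowest for Chac1, Asns and Trib3.

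Other genes linked to ATF4, from a list of 41 that holds no member, also peaked in AX 6. Of 40 tested, 0 passed in either direction, AX was above NC for 32 and below it for 8, and the median log2 fold change was 0.16. For 28 of the 40 the highest library was AX 6, which was highest for 25.8% of all genes tested, and for 16 the lowest was AX 10, which was lowest for 14.4% of all. Without AX 6 the split turned to 10 higher and 30 lower with a median of -0.14, and without both AX 6 and NC 1 it was 24 and 16 with a median of 0.04. The 4 genes with the smallest p pointed both ways. Slc7a11, the cystine importer that feeds glutathione synthesis, averaged 935 ± 417 CPM in AX, below the 1376 ± 652 CPM of NC. Atf5, a relative of Atf4, stood at 48.8 ± 14.4 against 69.3 ± 30.5 CPM. Slc1a5, a glutamine importer, stood at 139 ± 23.8 against 116 ± 21.9 CPM, and the stress-induced Sesn2 at 49.9 ± 31.8 against 37.2 ± 11.9 CPM, with 105 CPM in AX 6. Each had an edgeR adjusted p of 1.0.

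The HSP70 system of the ER, GRP94 and small secreted ER factors form the largest role group. By the fit, AX exceeded NC for 3 of these members and fell below it for 6. The log2 fold change of this group was -0.24 in the median. Hspa5 encodes BiP, the HSP70 chaperone that also holds the sensors inactive. It stood at 313, 189.8, 124, 225 and 93.8 CPM in NC 1 to NC 5 and at 358, 134, 154, 154 and 373 CPM in AX 6 to AX 10. AX 10, AX 6 and NC 1 were high and the other 7 lay at or below 225 CPM, so high and low libraries occurred in both groups. The log2 fold change was 0.31 ± 0.40 (SE), and it was 0.08 without AX 10, 0.10 without AX 6, 0.57 without NC 1 and 0.36 without both AX 6 and NC 1. Hyou1, a large HSP70 relative that helps BiP exchange nucleotide, was also uneven, from 17.1 CPM in NC 5 and 22.4 CPM in AX 8 to 142 CPM in NC 2; the fitted difference of -0.09 ± 0.51 (SE, log2) was 0.40 without NC 2 and 0.13 without AX 8.

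Of the partners of BiP, Dnajb11, Dnajc3 and Dnajb9 were more even than Hspa5, with 2.27, 1.73 and 2.54 times between the lowest and the highest library against 3.98 for Hspa5, and Sdf2l1 was less even at 5.22. Dnajb11, a J-domain co-chaperone, stood at 167, 309.8, 245, 322 and 282 CPM in NC and at 142, 267, 224, 229 and 216 CPM in AX, with AX 6 and NC 1 lowest. Dnajc3, which also restrains PERK, stood at 119.9, 182, 159, 187 and 172 CPM in NC and at 108, 158, 118, 134 and 148 CPM in AX. For both, 4 NC libraries lay above the median of AX, and the log2 fold changes were -0.30 ± 0.22 and -0.30 ± 0.17 (SE). Dnajb9, which steers BiP to substrates and restrains IRE1, differed from them: it was highest in AX 10 at 159 CPM and AX 6 at 134 CPM, and its fitted difference was 0.26 ± 0.27 (SE, log2). Sdf2l1, which keeps BiP clients soluble, stood at 31.8, 99.7, 35.1, 63.6 and 40.2 CPM in NC and at 19.5, 45.2, 19.1, 58.7 and 43.4 CPM in AX. Its log2 fold change of -0.54 ± 0.41 (SE) was -0.20 without NC 2, the library with by far the most Sdf2l1.

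Creld2, an ER protein secreted under stress, stood at 113, 167, 176, 221 and 205 CPM in NC and at 66.2, 135, 176, 117 and 134 CPM in AX. AX 6 was lowest and only AX 8 came near the NC median, and the log2 fold change was -0.49 ± 0.26 (SE) with an adjusted p of 1.0 by edgeR. Manf, a secreted protective factor, stood at 392, 431, 671, 437 and 619.8 CPM in NC and at 367, 504, 463, 371 and 459 CPM in AX. NC 3 and NC 5 stood above all other libraries, and the log2 fold change was -0.24 ± 0.20 (SE). Hsp90b1, which encodes GRP94, the chaperone of Toll-like receptors and integrins, stood at 668, 742, 683, 957 and 958 CPM in NC and at 567, 709, 1370.1, 626 and 983 CPM in AX. Hsp90b1 was highest in AX 8, where Hspa5 stood at 154 CPM, near its median of 172 CPM over the libraries. The fitted difference of Hsp90b1, 0.09 ± 0.26 (SE, log2), turned to -0.15 when AX 8 was left out.

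Lectin chaperones and disulfide enzymes were the steadiest group, the highest library holding 1.92 times the lowest in the median, with 5 of 6 lower in AX and a median log2 fold change of -0.12. Canx, the membrane lectin chaperone calnexin, stood at 315, 395, 318, 401 and 366 CPM in NC and at 296, 327, 312, 322 and 371 CPM in AX, the narrowest range of all members. Its soluble relative Calr stood at 474, 798, 430.5, 681 and 387 CPM in NC and at 481, 477, 379, 579 and 452 CPM in AX, with NC 2 and NC 4 on top. Their partner Pdia3 stood at 438, 588, 479.7, 718 and 477 CPM in NC and at 490.5, 555, 434, 424 and 417 CPM in AX, where 3 AX libraries lay below every NC library. Log2 fold changes were -0.14 ± 0.14 for Canx, -0.23 ± 0.23 for Calr and -0.22 ± 0.18 for Pdia3 (SE). Pdia4, another disulfide isomerase, was lowest at 88.6 CPM in AX 6 and highest at 204 CPM in AX 10, with -0.08 ± 0.24 (SE). Pdia6, which also damps IRE1, stood at 381, 534, 515, 556 and 544 CPM in NC and at 373, 436, 634, 403 and 517 CPM in AX, with NC 1 well below the other NC libraries and AX 6 equally low. Ero1l, the oxidase that recharges these enzymes and a CHOP target, stood at 242, 235, 273, 295 and 169 CPM in NC and at 269, 206, 466, 192 and 218 CPM in AX. AX 8 stood above all other libraries, and the fitted difference of 0.15 ± 0.27 (SE, log2) turned to -0.14 without it.

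**Figure D3:**
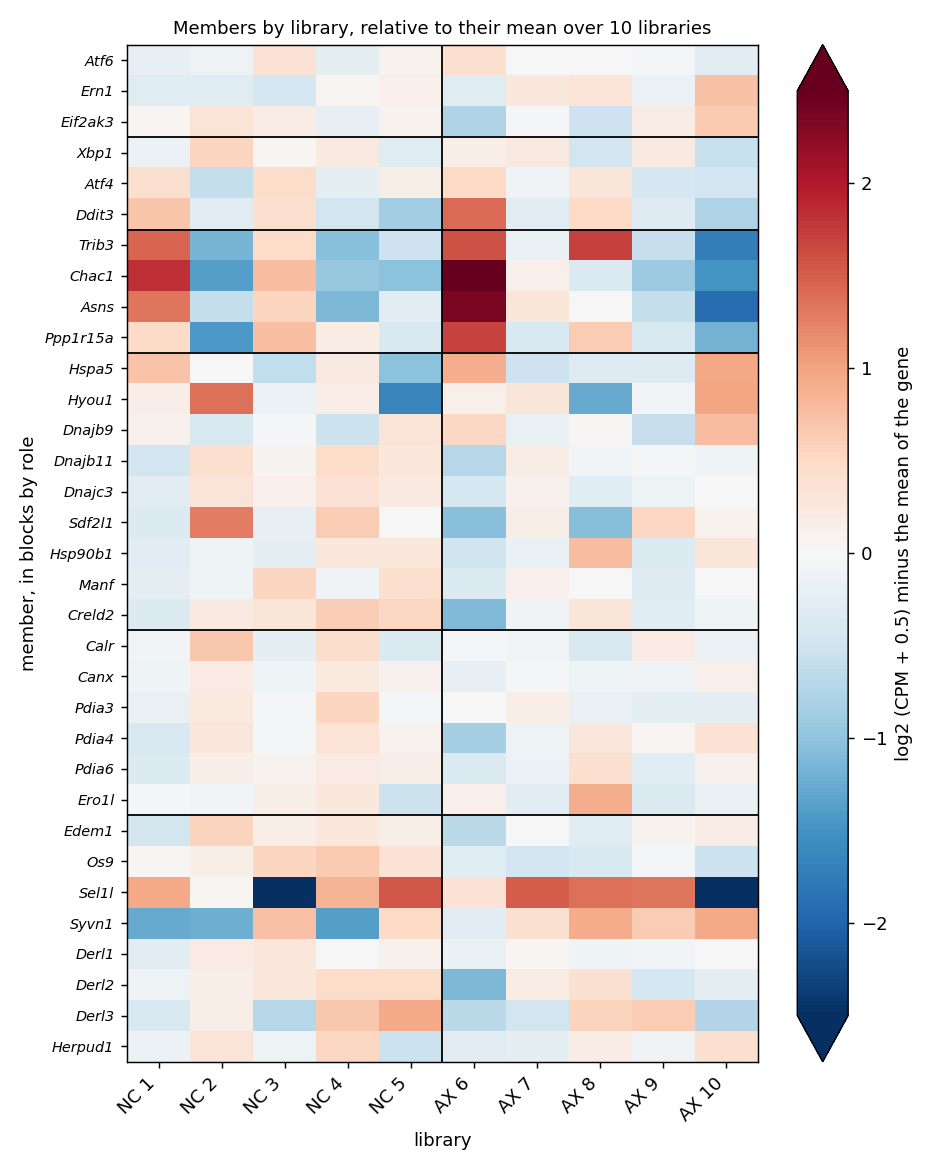
Log2(CPM + 0.5) of each member minus its own mean over the 10 libraries, red above and blue below, with members in blocks by role and NC parted from AX by the vertical line; the colour scale ends at 2.5 in both directions. Library AX 6 is red for the ATF4 and CHOP targets and blue for most folding and ERAD genes, and Sel1l is dark blue in NC 3 and AX 10.

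ERAD held the member with the lowest p of the set, and of all genes tested. Os9 encodes a lectin that hands misfolded glycoproteins to the SEL1L and HRD1 complex. The deposited table places it on mm10 at chr10:127094259-127121160 on the minus strand (ENSMUSG00000040462), a span that differs from that of GENCODE M21. In GENCODE M21, no exon of another gene overlaps the exons of Os9. Os9 stood at 94.5, 101, 133, 144 and 117 CPM in NC 1 to NC 5 and at 73.5, 65.5, 69.8, 88.1 and 62.4 CPM in AX 6 to AX 10. All 5 AX values lay below all 5 NC values, with 88.1 CPM as the highest of AX and 94.5 CPM as the lowest of NC, and the same held with library totals alone as scaling. The mean of AX was 71.9 ± 10.03 CPM, or 0.609 of the NC mean of 118 ± 20.99 CPM (SD, n = 5 in each group). The log2 fold change was -0.71 ± 0.17 (SE), with a 95% interval from -1.09 to -0.34. Its unadjusted p was 0.00151, but with edgeR the adjusted p was 1.0, while permuting the library labels (exact, two-sided, on group means) gave p = 0.00794, the smallest that 5 against 5 can give. Os9 was already known from earlier results of these data as the gene with the smallest p, so neither test is independent support. Over 22 alternatives its log2 fold change ran from -0.80 to -0.65 and its adjusted p from 0.261 (DESeq2) to 1.0.

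**Figure D4:**
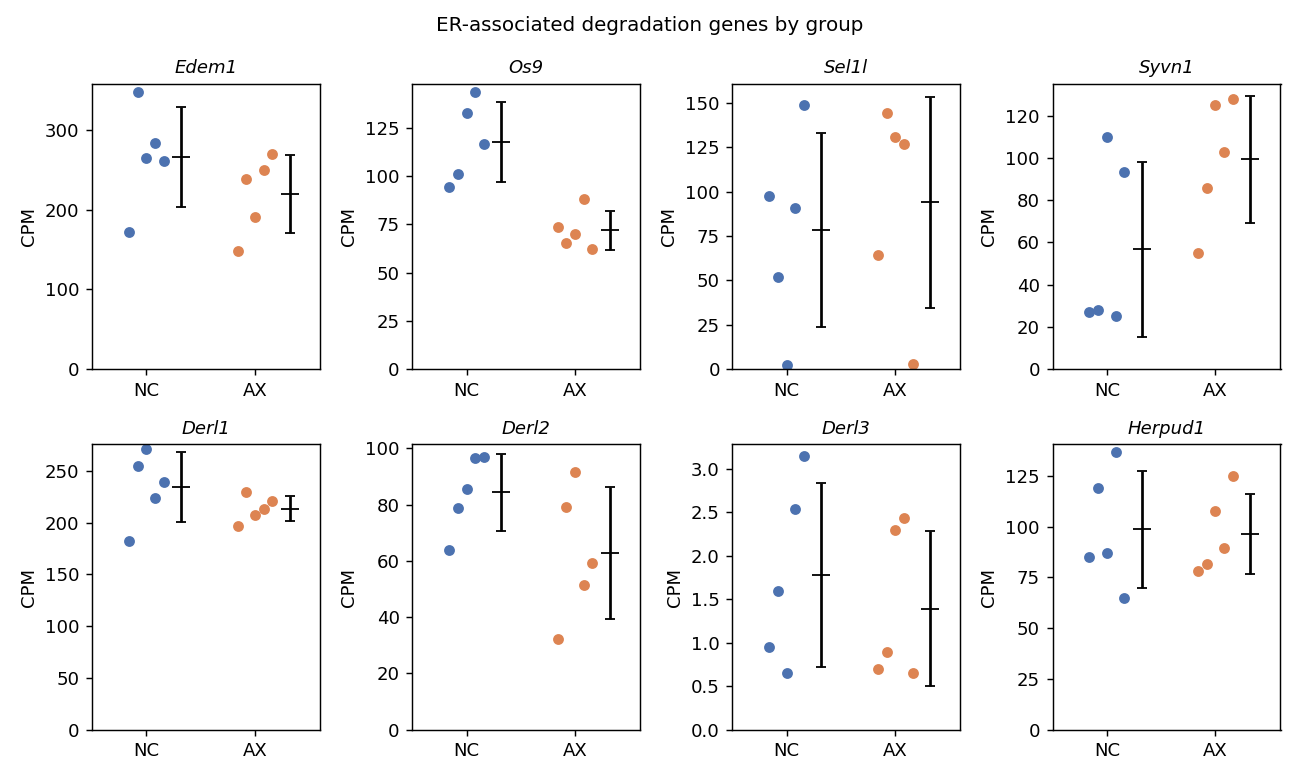
CPM of the 8 ERAD members in NC (blue) and AX (orange), each point a library in replicate order, with the group mean and SD in black beside the points; every axis starts at 0. Only for Os9 do the groups not overlap, and Sel1l is near 0 in a single library of each group, NC 3 and AX 10.

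The genes for the core of the complex that OS9 serves had higher, not lower, fitted values in AX, and neither passed. Sel1l encodes the adaptor that binds OS9, and Syvn1 encodes the ubiquitin ligase HRD1. Sel1l stood at 97.5, 51.8, 2.42, 90.9 and 149 CPM in NC 1 to NC 5 and at 64.2, 144, 131, 127 and 3.001 CPM in AX 6 to AX 10. It was nearly absent from NC 3 and AX 10, with 26 and 37 counts, where the other 8 libraries had 741 to 1941 counts. With those 2 libraries aside, AX averaged 117 ± 35.7 CPM, compared with 97.2 ± 39.9 CPM for NC (SD, n = 4 in each group). The fitted log2 fold change of 0.26 ± 0.92 (SE) turned to -0.05 without NC 3. Sel1l was the 1 of 29 members with a median of at least 20 CPM that had a library at least 8-fold below its median. That pattern occurred in 166 of 5597 such genes (2.97%), and 6 of these genes had it in both NC 3 and AX 10. No exon of another annotated gene overlaps Sel1l (chr12:91806043-91849157, mm10). Counts per gene do not show which exons were covered.

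Syvn1 fell into high and low libraries as well, at 27.2, 27.9, 110.2, 25.0 and 93.2 CPM in NC and at 54.9, 85.9, 125, 103 and 128 CPM in AX. NC 1, NC 2 and NC 4 lay below every AX library, while NC 3 and NC 5 lay inside the AX range. Its log2 fold change of 0.81 ± 0.46 (SE), the largest of the ERAD group, had an adjusted p of 1.0 with edgeR. Mrpl49 overlaps exons of Syvn1 on the other strand, at 5.21 to 11.7 CPM, and whether counting used strand was not given in the sources used here.

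None of the other ERAD members passed (edgeR adjusted p = 1.0 for each). Derl2, a channel-like ERAD protein, stood at 63.9, 78.8, 85.7, 96.5 and 97.0 CPM in NC and at 32.1, 79.3, 91.7, 51.3 and 59.1 CPM in AX, with 3 AX libraries below all NC libraries. The log2 fold change was -0.43 ± 0.26 (SE); Mis12, at 16.4 to 49.6 CPM, overlaps its exons on the other strand. Edem1, which trims mannose to mark glycoproteins for disposal, stood at 172, 348, 265, 284 and 261 CPM in NC and at 148, 238, 191, 250.1 and 269.6 CPM in AX, with AX 6 and NC 1 lowest and a log2 fold change of -0.28 ± 0.22 (SE). Derl1, a paralog of Derl2, was even, from 182 to 271 CPM in NC and from 197 to 229 CPM in AX. Herpud1, a membrane protein that helps assemble the HRD1 complex, ranged from 65.1 to 137 CPM in NC and from 78.1 to 125 CPM in AX, and its log2 fold change was -0.03 ± 0.23 (SE). Derl3, at 0.651 to 3.15 CPM in NC and 0.649 to 2.43 CPM in AX, was too low for a difference to be resolved (95% interval of the log2 fold change from -1.55 to 0.84).

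Of 29 other ERAD genes tested, 0 passed, with 10 higher and 19 lower in AX and a median log2 fold change of -0.10. The 2 genes with the smallest p in that list act, like Os9, on glycoproteins. Edem2, which makes the first mannose cut, averaged 33.7 ± 4.68 CPM in AX against 42.8 ± 6.25 CPM for NC, with -0.34 ± 0.17 (SE) as log2 fold change. Erlec1, the other ER lectin of this pathway and a relative of Os9, stood at 20.4 ± 2.93 against 25.3 ± 4.85 CPM, with -0.31 ± 0.19 (SE). Their groups overlapped and each had an adjusted p of 1.0 by edgeR. Next came Ube2g2, an ERAD ubiquitin-conjugating enzyme, at 72.4 ± 15.6 against 87.5 ± 11.4 CPM, and Nploc4, a cofactor of the extraction ATPase VCP, at 95.7 ± 6.06 against 107 ± 5.93 CPM.

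The remaining ER lists, none of which hold members, had medians near 0. Of 33 other folding and glycan enzymes tested, 0 passed, with 9 higher and 24 lower in AX and a median of -0.09. Txndc5, a disulfide isomerase, stood at 17.8 ± 7.84 against 34.5 ± 25.3 CPM, where NC 1 reached 78.4 CPM, and Pdia5 at 6.89 ± 2.83 against 10.1 ± 2.44 CPM. The other 2 genes with the smallest p were low in level and higher in AX, with the peak in AX 6. Uggt2, a glycoprotein glucosyltransferase relative, stood at 2.73 ± 2.10 against 1.40 ± 1.15 CPM and Fkbp7, a prolyl isomerase, at 2.34 ± 2.64 against 1.14 ± 0.837 CPM. Of 38 translocation and export genes, 0 passed, with 8 higher and 30 lower and a median of -0.12. Examples were Sec61a1, the pore of the ER channel, at 195 ± 39.8 against 229 ± 33.9 CPM and the cargo receptor gene Tmed9 at 230.3 ± 13.6 against 269 ± 43.0 CPM. Of 24 other stress signalling genes, 0 passed, with 14 higher and 10 lower and a median of 0.03. Bax, which permeabilises mitochondria in cell death, stood at 123 ± 21.5 against 154 ± 11.7 CPM. The next 3 by p were higher in AX: the transcription factor gene Nfe2l1 at 42.6 ± 18.4 against 29.1 ± 8.81 CPM, Eif2ak4, the kinase GCN2 that senses amino acid shortage, at 12.96 ± 2.08 against 10.3 ± 2.03 CPM, and Mbtps1, a protease that cuts ATF6, at 34.1 ± 2.54 against 29.8 ± 3.65 CPM. Against these splits, 46.4% of all genes tested were lower in AX.

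Some single libraries held the extremes of many members. AX 6 was the lowest library for 11 members, most of them folding and ERAD genes such as Creld2, Pdia4, Edem1 and Derl2, and the highest for 6, among them Chac1, Asns and Ddit3. Of all genes tested, AX 6 was lowest for 23.4% and highest for 25.8%, so it stood apart well beyond this set. NC 4 was highest for 7 members, all of them folding or ERAD genes, against 4.90% of all genes. The median deviation of the ATF4 and CHOP targets from their own mean over the libraries was 2.02 log2 units in AX 6 and 1.40 in NC 1, against -1.61 in AX 10 and -1.27 in NC 2. For ERAD genes the same 4 libraries stood at -0.30, -0.22, -0.13 and 0.16.

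To ask which members varied together, Ddit3 and Hspa5 were each compared with the other members across the 10 libraries, 63 relations in all. Ddit3 followed the ATF4 and CHOP targets. Pearson's r was 0.90 with Chac1, 0.88 with Trib3, 0.88 with Asns and 0.84 with Ppp1r15a, with permutation p-values adjusted over the family of 0.0164, 0.0164, 0.0164 and 0.0380 (n = 10). Spearman's rho was 0.87, 0.81, 0.83 and 0.73, with adjusted permutation p-values of 0.115, 0.115, 0.115 and 0.234, so the rank relation did not pass. Without AX 6 and NC 1, the libraries farthest from the median of Ddit3, r was 0.71, 0.83, 0.65 and 0.69. Relations of Ddit3 with genes outside the set were not computed. AX 6, where Ddit3 peaked, was the highest library for 25.8% of all genes tested, so these r values cannot be called particular to the 4 targets. Several folding and ERAD genes ran opposite to Ddit3 without passing. For Edem1 r was -0.80 (adjusted permutation p = 0.0644; rho -0.71, adjusted p = 0.234), and -0.45 without those libraries. For Canx r was -0.77 (adjusted permutation p = 0.0743; rho -0.82, adjusted p = 0.115), and -0.66 without them.

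Of the 32 relations of Hspa5, 0 passed (smallest adjusted permutation p 0.143 for r and 0.277 for rho, n = 10), and 11 of the 32 were positive. With Hsp90b1, which shares the ERSE with it, r was -0.19 and rho -0.07 (permutation p = 0.603 and 0.864, adjusted rho p = 0.939). The highest r was with Hyou1, 0.58 (rho 0.56; permutation p = 0.0759 and 0.0960), and the lowest with Manf, -0.68 (rho -0.66; permutation p = 0.0296 and 0.0440). These became 0.54 and -0.74 without AX 6 and AX 10, the libraries farthest from the median of Hspa5. The 11 members with an ERSE or ERSE-II likewise did not share a direction between the groups: 8 were lower and 3 higher in AX, with log2 fold changes from -0.49 for Creld2 to 0.81 for Syvn1.

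**Figure D5:**
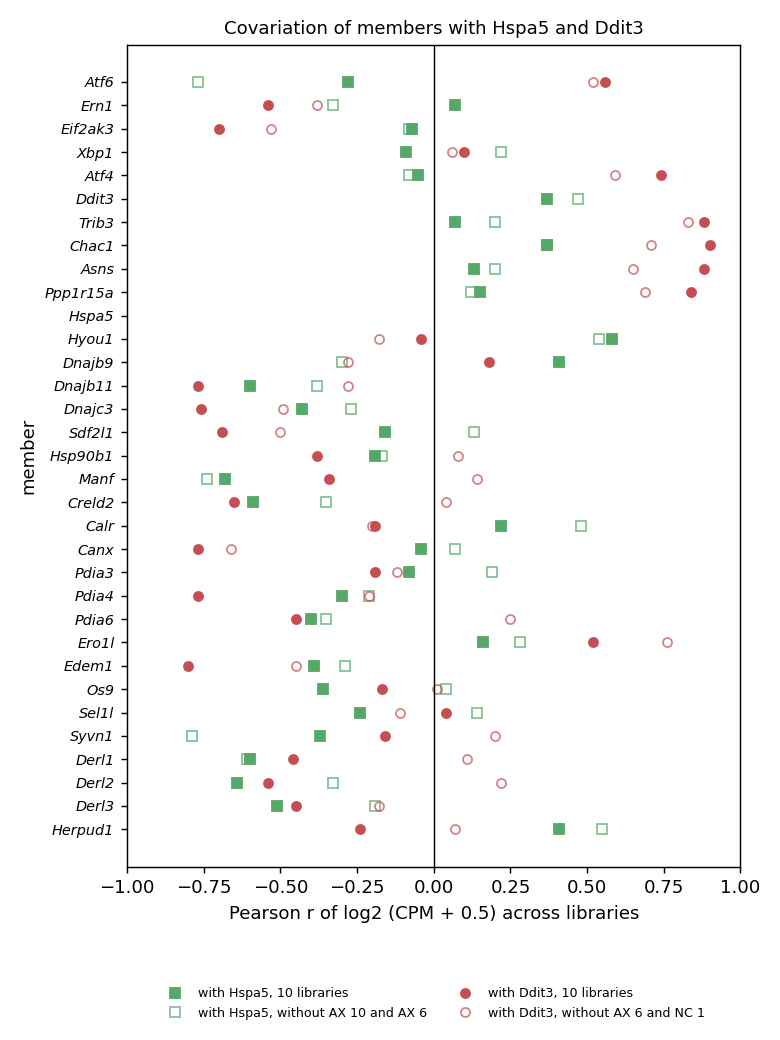
Pearson r of log2(CPM + 0.5) of each member with Hspa5 (green squares) and with Ddit3 (red circles) over the 10 libraries (filled) and without the 2 libraries farthest from the median of Hspa5 or Ddit3 (open). The 4 ATF4 and CHOP targets lie between 0.84 and 0.90 with Ddit3, and no member lies above 0.58 with Hspa5.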

How the data were processed

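Whole-number gene counts and FPKM values of 10 libraries were used as deposited. The submitters' processing notes name HISAT2 2.0.4 and mm10; the counting tool, the annotation and whether strand was used were not given in the sources used here. FPKM values, which the authors deposited beside the counts, served to compare levels between genes and for 1 alternative. Counts were analysed with edgeR 4.0.16 in R 4.3.3: filterByExpr, TMM scaling, and the two-sided quasi-likelihood F test of AX against NC without covariates. P-values were adjusted by Benjamini and Hochberg's method over all 12264 genes kept, with 0.05 as threshold, and each SE is the log2 fold change over the square root of F. Correlations used log2(CPM + 0.5) and 100000 permutations in Python 3.11.15. Alternatives were DESeq2 1.42.0, limma 3.58.1 (voom, voom with quality weights, and log2(FPKM + 1) for genes at 1 FPKM or more in 5 libraries), other scalings and filters, marker lists as covariates, and leaving out libraries. The fits were tested on simulated counts.

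Members, lists, tests and alternatives were chosen with earlier results of these data known. All members are named. By rule, values in every library are given for Hspa5, Xbp1, Atf4 and Ddit3, for up to 4 members of each role with the smallest p, and for members with separate groups or an outlying library; those of Manf, Hsp90b1 and Sel1l were added after their values were seen. Of each pathway list up to 4 genes with the smallest p are named. Gene spans equal those of GENCODE M21 for 25 of 33 members. Exons of 4 members (Ddit3, Hsp90b1, Manf and Pdia4) overlap another annotated gene on the same strand, and those of 7 (Eif2ak3, Ppp1r15a, Dnajb9, Pdia3, Pdia6, Syvn1 and Derl2) on the other strand only, so reads there cannot be assigned with certainty. Promoter sequences are RefSeq's, on GRCm38.p6.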

Additional observations from a re-analysis of the deposited data

Results flagged for a closer look

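Among the 66 groups of 5 libraries compared (33 members in each of AX and NC), 4 held a library whose gap to its neighbour exceeded 0.71 of the group's range (Dixon's 95% criterion). This is 6.06% of the groups, against 13.1% of the groups of all genes tested, and chance alone gives about 1 in 20. Chac1 in AX 6 stood at 42.7 CPM, beside 0.973 to 4.04 CPM in the rest of AX. Asns in AX 6 stood at 88.3 CPM against 4.14 to 20.9 CPM. Ero1l in AX 8 stood at 466 CPM against 192 to 269 CPM. Pdia6 in NC 1 stood at 381 CPM, below 515 to 556 CPM in the other NC libraries.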

How the results depend on the processing

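No paired analysis was possible because the labels number NC from 1 to 5 and AX from 6 to 10. In none of the 22 alternatives did a member pass an adjusted p of 0.05. Members at an unadjusted p under 0.05 numbered 1 to 3. The number of members lower in AX was 18 to 22 and their median log2 fold change -0.15 to -0.02 on leaving out single libraries. Over all genes, 0 passed in every alternative but 1: without NC 3 a single gene, Rnf24, no member, passed (range 0 to 1), while genes at an unadjusted p under 0.05 numbered 99 to 433 on leaving out single libraries, 319 without both AX 6 and NC 1, 193 with DESeq2, 380 with quality weights and 313 without a filter. The median of the other ERAD genes moved to -0.16 with library totals, -0.17 on log2(FPKM + 1) and -0.04 with the macrophage list as covariate. Of the members, 19 kept their sign in all alternatives and 14 did not; the cause was not tested. On leaving out single libraries their log2 fold changes ranged from -0.06 to 0.15 for Atf6, -0.34 to 0.03 for Eif2ak3, -0.22 to 0.04 for Atf4, -0.15 to 0.57 for Ddit3, -1.08 to 1.95 for Chac1, -0.61 to 0.98 for Asns, -0.29 to 0.56 for Ppp1r15a, -0.39 to 0.40 for Hyou1, -0.15 to 0.20 for Hsp90b1, -0.19 to 0.07 for Pdia4, -0.14 to 0.25 for Ero1l, -0.05 to 0.63 for Sel1l and -0.15 to 0.10 for Herpud1. Without both AX 6 and NC 1, Atf6 gave -0.11, Eif2ak3 0.02, Chac1 -0.19, Asns -0.11 and Ppp1r15a -0.17. With quality weights Ppp1r15a gave -0.11, Hspa5 -0.06, Hsp90b1 -0.11 and Ero1l -0.13. Atf6 gave 0.00 with library totals and -0.01 on log2(FPKM + 1), where Hsp90b1 gave -0.03. Atf4 gave 0.08 with the macrophage covariate and Hyou1 0.04 with limma-voom. The stricter filter (50 counts in 5 libraries) removed Chac1 and Derl3. Depth limits Derl3 and Chac1 most, with as few as 7 counts of Derl3 and 12 counts of Chac1 in a library.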
